A study of Mus musculus with 3 samples.

Results

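The contrast described here set the 2 cultures that received interleukin 4 (IL-4), Th2 and Th9, against the iTreg culture, in which IL-4 was blocked by an antibody. For each gene the log2 ratio of polarised over naive signal was averaged over the Th2 and Th9 arrays and the iTreg ratio was subtracted; this is the pooled difference. A gene entered when its probe was well above background in both channels of all 3 arrays, which held for 10343 of the 19751 genes named on the array (52.4%). These 3 arrays are the whole series, with 1 array per culture.

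Splenic naive CD4 T cells of C57BL/6 mice aged 6 to 8 weeks, isolated with magnetic beads, were the source of every sample. All cultures ran for 3 days with antibodies against CD3e and CD28 at 10 µg/ml each. The Th2 culture contained IL-4 at 5 ng/ml, IL-2 at 1 ng/ml and anti-interferon-gamma at 2 µg/ml. The Th9 culture contained IL-4 at 1 ng/ml, TGF-beta 1 at 2 ng/ml, IL-2 at 0.2 ng/ml and anti-interferon-gamma at 5 µg/ml. The iTreg culture contained anti-IL-4 at 5 µg/ml, TGF-beta 1 at 5 ng/ml, IL-2 at 0.4 ng/ml and anti-interferon-gamma at 5 µg/ml. No culture was activated without cytokines, and the labels do not say whether mice were pooled or whether the naive RNA was 1 extract.

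The order of the media in IL-4 (5 ng/ml, 1 ng/ml, blocked) is the exact reverse of their order in TGF-beta 1 (none, 2 ng/ml, 5 ng/ml). A gene that follows one of these orders follows the other as well, so IL-4 dose and TGF-beta 1 cannot be told apart. The added IL-2 was highest in Th2 and lowest in Th9, with iTreg between them, and its part in the differences was not tested. Without replicate arrays there was no spread between replicates and no test across cultures was possible. Genes were therefore classed by size, as at least 2-fold (1 on the log2 scale) higher or lower than iTreg in Th2 and in Th9 separately. Each ± is the scanner software's error for the spots, combined as the root of summed squares (n = 1 array per culture), and covers error within an array only.

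IL-4 binds a receptor made of the IL-4 receptor alpha chain and the common gamma chain, and the attached kinases JAK1 and JAK3 phosphorylate the transcription factor STAT6. In CD4 T cells STAT6 raises GATA3 and with it the Th2 cytokines, and IL-4 together with TGF-beta favours IL-9 production. TGF-beta without IL-4 favours Foxp3, the defining factor of regulatory T cells, and IL-4 is known to oppose that step. Suppressors of cytokine signalling such as SOCS1 and CISH are induced by STAT factors and dampen the same receptors.

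Each array had 43020 spots for genes, none of them saturated. Signal was well above background for 53% to 54.1% of spots with naive RNA and for 48.9% to 51% with polarised RNA. Median intensity was 88 to 92 in the naive channel and 99 to 104 in the polarised channel, over local background of 26 to 28 and 49 to 49.5. Probes spotted repeatedly had a median SD of 0.047 to 0.0522 on the log2 scale within an array. All 13 of the T cell identity genes on the array were measured, Cd4 among them. Of the markers of B cells, of NK and CD8 T cells, and of myeloid cells on the array, 3 of 13, 7 of 15 and 7 of 17 were measured.

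The 3 genes given as markers of the contrast, Nfil3, Socs1 and Batf, were higher in both IL-4 cultures than in iTreg and stood in the order Th2, Th9, iTreg. The log2 ratio of polarised over naive signal of Nfil3 (NM_017373), a leucine zipper factor that acts in several lymphocyte lineages, was 4.92 in Th2, 4.27 in Th9 and 2.68 in iTreg. Nfil3 was thus far above naive in every culture, with a pooled difference of 1.91 ± 0.49. The ratio of Socs1 (NM_009896), an inhibitor of Janus kinases, was 1.19 in Th2, 0.37 in Th9 and -0.94 in iTreg. Batf (NM_016767), an AP-1 family factor needed for several helper T cell programmes, had ratios of 1.64 in Th2, 0.36 in Th9 and -0.69 in iTreg. Socs1 and Batf were below naive in iTreg alone and had pooled differences of 1.71 ± 0.27 and 1.69 ± 0.27. The step from Th9 to Th2 was 1.28 ± 0.33 for Batf, 0.83 ± 0.31 for Socs1 and 0.65 ± 0.71 for Nfil3. It was larger than 2 combined errors for Batf and Socs1 and smaller than 1 for Nfil3. All 3 genes kept this order, with at least a 2-fold difference from iTreg in both cultures, under each alternative processing that used the 3 arrays.

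Over all measured genes, Th2 and Th9 lay on the same side of iTreg for 8894 (86%), of which 4432 were higher and 4462 lower in the IL-4 cultures. Both differences subtract the same iTreg array, so a shared side is favoured by that array's error. At least 2-fold higher in both were 478 genes (4.62% of those measured), and at least 2-fold lower in both were 487 (4.71%). Taken alone, Th2 had 700 higher and 715 lower genes and Th9 had 655 and 693. The balance of the counts rests on the loess step. With each array centred on the median of all probes, 1585 genes were higher and 167 lower, a split of 90.5% higher against 49.5% in the main values, and the median of all measured genes moved to 0.49. With each array centred on its measured genes, an alternative added after the data were seen, 635 were higher and 420 lower (60.2% higher), and 433 and 378 of the original genes were among them. Nearest to the limit were Stom (smaller difference 1.001) just inside and G6pc3 (0.998) just outside on the higher side, and Bmf (-1.0004) and Iftap (-0.999) on the lower side.

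**Figure D1:**
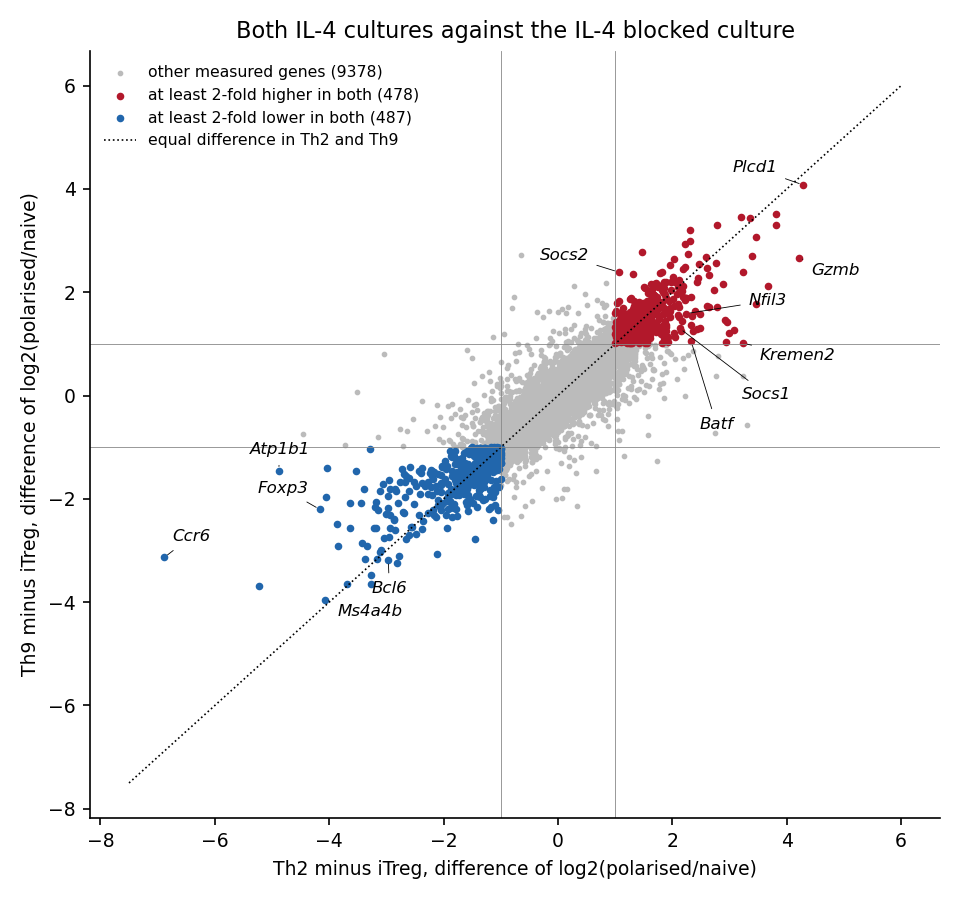
Difference from iTreg in log2(polarised/naive) for Th2 (horizontal) and Th9 (vertical), 1 point per measured gene, with grey lines at 1 and -1 and a dotted line of equal difference. The 478 genes in red and 487 in blue are at least 2-fold from iTreg in both cultures; most lie near the dotted line, while Ccr6, Atp1b1 and Kremen2 lie far from it.

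Where these genes stood against naive cells differed between the directions. The 478 higher genes had median log2 ratios against naive of 2.06 in Th2, 1.96 in Th9 and 0.54 in iTreg. In 234 of them both IL-4 cultures were at least 2-fold above naive while iTreg was within 2-fold of it, and in 144 all 3 cultures were at least 2-fold above naive. The 487 lower genes had medians of -1.34, -1.28 and 0.03. In 232 of them both IL-4 cultures were at least 2-fold below naive and iTreg was within 2-fold of it, and in 65 all 3 were at least 2-fold below. Another 61 were at least 2-fold above naive in iTreg and within 2-fold of it in both IL-4 cultures. The SD of the ratio over all measured genes was 1.15 in Th2, 1.19 in Th9 and 0.885 in iTreg, so the iTreg array had the narrowest spread of ratios against naive.

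The 12 genes with the largest difference in both cultures included structural, complement and signalling genes. Plcd1 (NM_019676), a phospholipase C, had log2 ratios against naive of 4.49 in Th2, 4.28 in Th9 and 0.20 in iTreg, a pooled difference of 4.18 ± 0.46. Lama5, a laminin chain, had ratios of 4.52, 4.23 and 0.72. Both genes were near the naive level in iTreg and far above it in the IL-4 cultures. Fcmr, a receptor for IgM, followed with 3.82 in Th2 and 4.09 in Th9, against 0.63 in iTreg. C3, the central complement component, stood at 3.58, 3.19 and 0.12, and its other measured probe gave a pooled difference of 4.37 beside 3.27. For Lmna, which encodes lamin A and C, the ratios were 1.75, 2.27 and -1.04. Th2 minus Th9 was -0.27 ± 0.73 for Fcmr, 0.39 ± 0.55 for C3 and -0.52 ± 0.41 for Lmna, none of them beyond 2 combined errors. Gem, a small GTPase, had a pooled difference of 3.04 ± 0.35, Pros1, an anticoagulant protein, 2.67 ± 0.49, and Dmwd 2.54 ± 0.52. Odf2 had 2.63 ± 0.36 by the probe used and 0.75 by its other measured probe.

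For Batf3 and Tgm2 the naive channel itself differed between arrays. Batf3, an AP-1 family factor close to Batf, had ratios of 3.69 in Th2, 3.78 in Th9 and 0.33 in iTreg, a pooled difference of 3.40 ± 0.50. Its naive channel spanned 2.55 on the log2 scale over the arrays, with background-subtracted intensities of 504 on the Th2 array, 305 on the Th9 array and 55 on the iTreg array. Comparing the polarised channels directly gave 5.59. Tgm2, a transglutaminase, had ratios of 5.71, 5.20 and 1.90, and its naive channel spanned 1.15; another probe gave a pooled difference of 2.69 beside 3.55. The part of the naive channel in these values was not tested. Over the 478 higher genes, 450 had naive channels within 0.5 of each other, and the same held for 450 of the 487 lower genes.

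The genes most reduced in the IL-4 cultures included receptors that guide T cell migration and inhibitory receptors. Ccr6 (NM_009835), the receptor for CCL20, had log2 ratios of -2.11 in Th2, 1.64 in Th9 and 4.78 in iTreg. Its pooled difference of -5.01 ± 0.57 was the most negative of the measured genes, and the 3 cultures were far apart. Cxcr6 stood at -3.01, -2.96 and 0.69, and Cxcr5, the receptor for the follicle chemokine CXCL13, at -1.49, -1.87 and 1.78. Pdcd1, the inhibitory receptor PD-1, had ratios of -0.05 in Th2, -0.25 in Th9 and 3.22 in iTreg. Cxcr5 and Pdcd1 were above naive in iTreg alone, with pooled differences of -3.46 ± 0.34 and -3.37 ± 0.40. Ms4a4b, a membrane protein of T cells, was below naive in every culture, with -5.10 in Th2 and -4.97 in Th9, against -1.02 in iTreg. Smpdl3a, a phosphodiesterase of the acid sphingomyelinase family, had -4.12, -2.59 and 1.11. The pooled differences were -3.26 ± 0.36 for Lpar6, a lysophosphatidic acid receptor, and -3.17 ± 0.34 for Nod1, a sensor of bacterial cell wall. Lcn6, Mndal and Klrd1 had -3.13 ± 0.48, -3.06 ± 0.45 and -3.05 ± 0.43. Bcl6 completed these 12 genes and is described with the IL-4 response list.

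Of the 12 genes, only Ccr6 and Smpdl3a differed between Th2 and Th9 by more than 2 combined errors. The other 10 had differences between the IL-4 cultures of at most 0.43 on the log2 scale.

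A list of 34 genes known to respond to IL-4 or STAT6 had 26 measured members. At least 2-fold higher in both IL-4 cultures were 7 of them (26.9%, against 4.62% of all measured genes) and 2 were lower (7.69%, against 4.71%). The higher ones were Plcd1, Tgm2, Nfil3, Socs1, Batf, Cish and Rbbp8, and the lower ones Bcl6 and Cd9. Nfil3, Socs1 and Batf were given with the contrast, and the list, like the others here, was chosen with earlier results of these data known. The shares are therefore a description only. With median centring over all probes 11 were higher and 1 lower. The median pooled difference of the list was 0.58, against 0.00 over all measured genes, and 16 members were higher and 8 lower on the same side of iTreg. Of the 26, 14 stood in the order Th2, Th9, iTreg, as did 2312 of the 10343 measured genes (22.4%).

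Some members reached the 2-fold limit in Th2 and not in Th9. Pparg, a nuclear receptor active in Th2 cells, had log2 ratios of 3.34 in Th2, 1.31 in Th9 and 0.55 in iTreg. Ecm1, a secreted matrix protein of Th2 cells, had 1.87, 0.18 and -0.33. Th9 exceeded iTreg by 0.77 for Pparg and 0.51 for Ecm1, and Th2 exceeded Th9 by 2.03 ± 0.51 and 1.69 ± 0.34. Crip2 had 1.75, 0.87 and -0.12. Its Th9 difference from iTreg of 0.98 was just under the limit and passed it in some alternatives, with 1.08 by the scanner software's log ratio. Gata3 and Il4ra were under the limit in both cultures. Gata3, the master factor of Th2 cells, stood at 1.40 in Th2, 1.01 in Th9 and 0.53 in iTreg, a pooled difference of 0.68 ± 0.27. Il4ra, the IL-4 receptor alpha chain, had -0.53 in Th2, -1.30 in Th9 and -1.35 in iTreg. Il4ra was therefore below naive in every culture, and the Th9 culture with 1 ng/ml IL-4 differed from iTreg by 0.04 ± 0.35.

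Other members had like values in the 2 IL-4 cultures. Cish, a suppressor of cytokine signalling, had log2 ratios of 3.31 in Th2 and 3.27 in Th9, against 1.81 in iTreg, and Th2 exceeded Th9 by 0.04 ± 0.54. Rbbp8, a DNA end-resection factor, had 1.48, 1.68 and 0.46; comparing the polarised channels directly put its Th2 difference at 0.98, under the limit. Bcl6 (NM_009744), the repressor that directs follicular helper T cells, had -1.45 in Th2, -1.66 in Th9 and 1.52 in iTreg. Bcl6 was below naive in both IL-4 cultures and above naive in iTreg, with a pooled difference of -3.07 ± 0.31. Its Th2 and Th9 values were within 1 combined error of each other. Cd9, a tetraspanin, had -1.08, -1.53 and 0.28. Maf, a factor for IL-4 and IL-10 expression, was lower in Th2 (-0.99) than in Th9 (0.72) and iTreg (0.93).

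**Figure D2:**
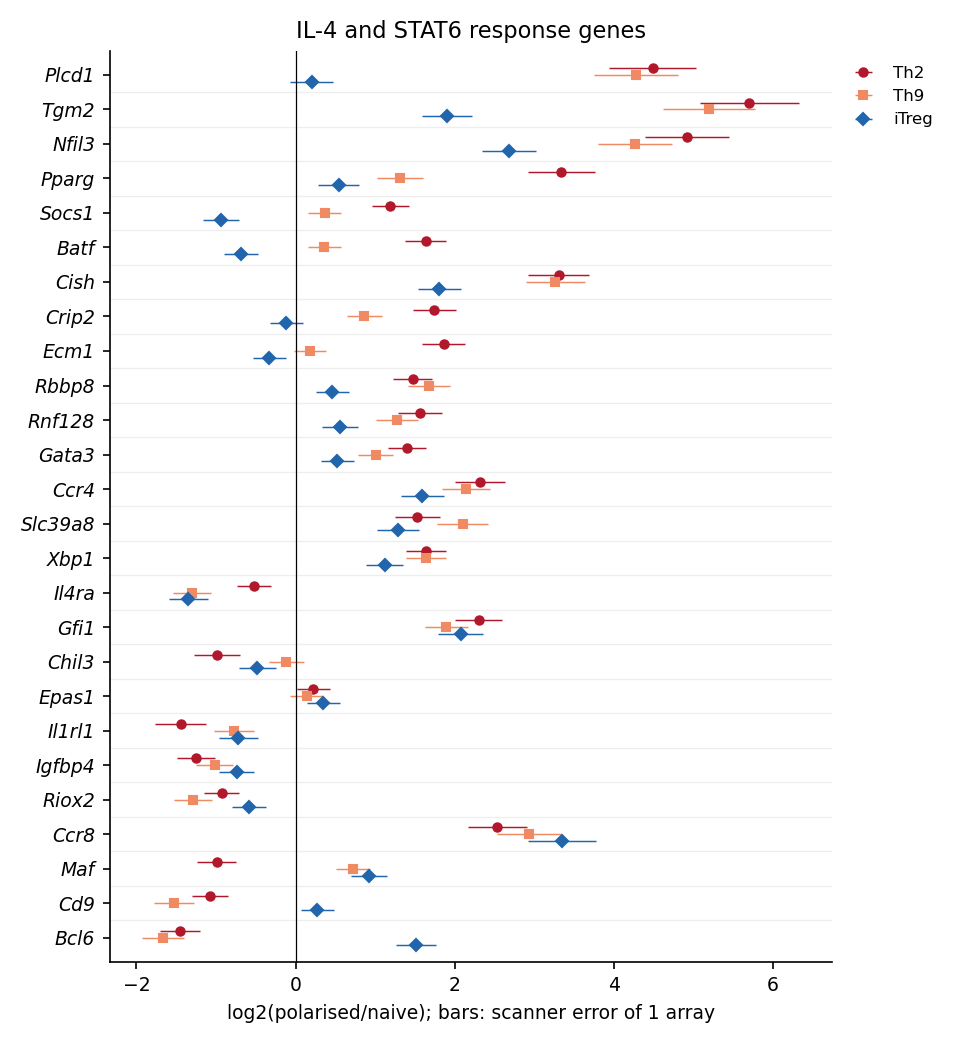
log2(polarised/naive) of the 26 measured IL-4 and STAT6 response genes in Th2, Th9 and iTreg, 1 point per array with the scanner error as bar, ordered by the pooled difference. The upper genes have iTreg to the left of both IL-4 cultures. Pparg and Ecm1 have Th9 nearer to iTreg than to Th2, and Bcl6 and Cd9 at the bottom have iTreg to the right.

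Of 23 measured genes of the receptor and its signalling chain, Socs1 and Cish were at least 2-fold higher in both cultures (8.7%, against 4.62% of all measured genes). Parp14 was lower (4.35%, against 4.71%), and the median pooled difference was -0.14, or 0.48 with median centring over all probes. Stat6 itself had log2 ratios of -0.72 in Th2, -0.64 in Th9 and -0.17 in iTreg, a pooled difference of -0.51 ± 0.25. Jak1 stood at -2.44, -2.26 and -1.29, and Jak3 had a pooled difference of -0.21 ± 0.30. Jak1 differed from iTreg by -1.15 in Th2 and by -0.96 in Th9, just short of the limit in Th9. Il2rg, the common gamma chain, had a pooled difference of -0.42 ± 0.28. Parp14, a cofactor of STAT6, had -2.96 in Th2, -3.71 in Th9 and -1.94 in iTreg; its call was lost with median centring, over all probes or over the measured genes. Socs3 stood in the order Th2, Th9, iTreg with 0.49, -0.66 and -1.16, and Th2 exceeded Th9 by 1.15 ± 0.30.

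STAT factors bind paired TTC and GAA letters, and STAT6 is known for a spacing of 4 bases where most other STAT factors prefer 3. The promoters of Bcl6, Cish and Socs3 are shown because they have the largest pooled differences among the IL-4 pathway genes whose windows hold such letters. They are RefSeq windows of assembly GRCm38.p6, from 250 bases before to 25 after the annotated start, read 5′ to 3′ on the gene's strand. Capitals mark each TTC, 3 of any base, GAA. Bcl6 has 2 annotated starts, with windows at chr16:23988828-23989102 and chr16:23981259-23981533 on the minus strand. The Cish window is chr9:107296409-107296683 on the plus strand, and the Socs3 window chr11:117969342-117969616 on the minus strand.
Bcl6, upstream start: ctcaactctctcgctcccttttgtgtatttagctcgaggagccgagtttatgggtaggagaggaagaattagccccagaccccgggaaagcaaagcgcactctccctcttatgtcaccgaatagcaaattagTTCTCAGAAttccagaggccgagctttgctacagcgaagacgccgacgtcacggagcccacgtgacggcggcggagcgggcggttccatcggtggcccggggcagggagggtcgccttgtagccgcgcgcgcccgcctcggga
Bcl6, downstream start: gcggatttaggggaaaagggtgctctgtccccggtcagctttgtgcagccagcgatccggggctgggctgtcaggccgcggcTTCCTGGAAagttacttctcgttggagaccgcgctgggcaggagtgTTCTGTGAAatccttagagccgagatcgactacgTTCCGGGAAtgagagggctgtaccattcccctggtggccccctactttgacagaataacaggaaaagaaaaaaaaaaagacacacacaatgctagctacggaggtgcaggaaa
Cish: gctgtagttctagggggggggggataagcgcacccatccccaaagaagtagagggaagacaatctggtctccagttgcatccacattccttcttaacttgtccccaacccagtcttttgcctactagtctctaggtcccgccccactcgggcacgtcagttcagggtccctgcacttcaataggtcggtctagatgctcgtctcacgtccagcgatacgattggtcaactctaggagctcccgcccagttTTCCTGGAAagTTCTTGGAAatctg
Socs3: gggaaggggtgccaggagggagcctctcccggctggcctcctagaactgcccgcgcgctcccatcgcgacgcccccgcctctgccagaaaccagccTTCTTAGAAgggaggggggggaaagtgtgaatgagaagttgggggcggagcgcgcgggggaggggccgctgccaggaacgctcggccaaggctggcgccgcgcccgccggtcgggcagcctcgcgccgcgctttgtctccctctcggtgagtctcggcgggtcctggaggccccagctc

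In the first Bcl6 window the match TTCTCAGAA begins 118 bases before the start. The other Bcl6 window has 3 matches, beginning 168, 122 and 88 bases before its start. One Cish match begins at the annotated start and the next one 11 bases after it, and the Socs3 match begins 154 bases before the start. None of the 22 measured IL-4 and STAT6 response genes with a window held the 4-base spacing (TTC, 4 of any base, GAA), and 3 held the 3-base spacing. The windows searched were 300 bases long, 50 of them after the start, and both motifs read the same on either strand. The 4-base spacing was found for 8.2% of the 378 higher genes with a window and for 6.78% of the 398 lower genes. It was found for 6.48% of the measured genes and 8.01% of the whole promoter table. The 3-base spacing was found for 8.47% of the higher genes, 11.3% of the lower genes, 8.54% of the measured genes and 9.55% of the table. These are matches of letters, and no binding was measured.

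Whether the size of the difference followed the order of IL-4 dose, which is also the reverse order of TGF-beta, was read from Th2 minus Th9. Among the 478 higher genes, 231 (48.3%) were farther from iTreg in Th2, the culture with 5 ng/ml IL-4, and 247 were farther in Th9, with 1 ng/ml. Among the 487 lower genes, 255 (52.4%) were farther in Th2 and 232 in Th9. The sizes were alike for most of these genes. Th2 and Th9 differed by less than 1.5-fold in 427 of the higher (89.3%) and 406 of the lower genes (83.4%), and by no more than 2 combined errors in 454 and 440. The median absolute difference between Th2 and Th9 was 0.197 for the higher and 0.172 for the lower genes on the log2 scale, beside median pooled differences of 1.41 and -1.43. The share of higher genes that were farther in Th2 was 79.9% with median centring over all probes and 52.3% with centring on the measured genes, so the sign of small Th2 minus Th9 values depends on the scaling.

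Large steps between Th2 and Th9 mostly had Th2 farther from iTreg. This is the order of the IL-4 dose and also the reverse order of TGF-beta, so the counts cannot tell these additives apart. The added IL-2 and anti-interferon-gamma differed between Th2 and Th9 as well, and their part was not tested. The same counts over all measured genes are not given here. A further 2-fold between Th2 and Th9 was found in 14 higher genes that were farther from iTreg in Th2, against 3 that were farther in Th9. The lower genes gave 28 against 4. Counted by more than 2 combined errors, the numbers were 22 against 2 for the higher and 39 against 8 for the lower genes.

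**Figure D3:**
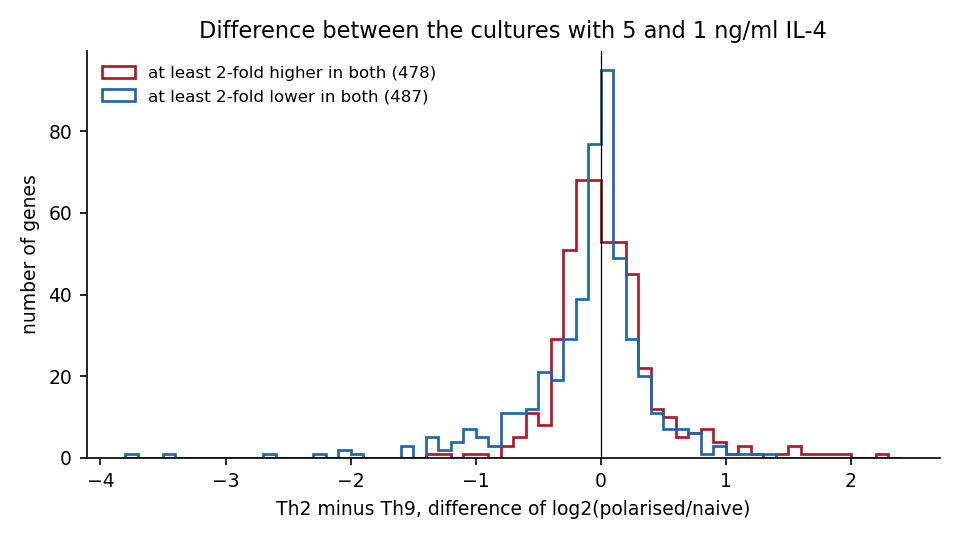
Histogram of Th2 minus Th9 in log2(polarised/naive), in bins of 0.1, for the 478 higher (red) and 487 lower genes (blue). Both distributions centre near 0, the red one has a longer tail to the right and the blue one to the left.

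The 14 higher genes with a graded order included granzymes, transcriptional regulators and cytokine genes. Kremen2, a coreceptor in Wnt signalling, had log2 ratios of 2.14 in Th2, -0.08 in Th9 and -1.09 in iTreg. Il3, a growth factor for haematopoietic cells, had 3.34, 1.44 and 0.40. The steps from Th9 to Th2 were 2.22 ± 0.39 and 1.91 ± 0.61, and both genes missed the 2-fold limit in Th9 when the polarised channels were compared directly and with centring on the measured genes. Gzmb, a cytotoxic granule protease, had 2.36 in Th2, 0.82 in Th9 and -1.85 in iTreg. Gzma had -2.80, -4.35 and -6.48, below naive throughout. Both granzymes were about 1.5 higher in Th2 than in Th9 on the log2 scale (1.54 for each) and lowest in iTreg. Krt18, a keratin, had 4.37, 2.69 and 0.92, and Padi3, a peptidylarginine deiminase, had 1.16, -0.65 and -1.92. Id2, an inhibitor of E proteins, had 0.21, -0.97 and -2.27. Il12rb1, a subunit of the IL-12 receptor, had 3.62, 2.55 and 0.83. Tbkbp1, Gpm6b, Septin8, Soat2, B430306N03Rik and Batf were the remaining ones, with Th2 minus Th9 between 1.11 and 1.78.

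The opposite order among higher genes was seen in Socs2, Maged1 and Tnni1. Socs2, a suppressor of growth hormone and cytokine signalling, had log2 ratios of 3.27 in Th2, 4.60 in Th9 and 2.21 in iTreg. Its Th2 minus Th9 was -1.33 ± 0.69, within 2 combined errors. Maged1 had 1.77, 3.07 and 0.30, and its -1.29 ± 0.54 was beyond them.

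Among the 28 lower genes in graded order, Ccr6 had the widest step, with Th2 minus Th9 of -3.75 ± 0.46. Atp1b1, a subunit of the sodium pump, had log2 ratios of -3.96 in Th2, -0.53 in Th9 and 0.92 in iTreg. Foxp3 had -0.68 in Th2, 1.28 in Th9 and 3.49 in iTreg, so it was above naive in Th9 and below it in Th2. Acsbg1, an acyl-CoA synthetase, had -0.44, 1.65 and 3.61. These genes rank in the order of TGF-beta 1 as well, and which of the additives they followed cannot be told apart. Klf2, a factor that keeps T cells quiescent, had -4.91, -3.83 and -1.27, and Igf2r had -1.20, -0.15 and 1.65. Apol9a and Apol9b, close paralogs whose probes may share signal, had Th2 minus Th9 of -2.08 ± 0.34 and -2.65 ± 0.39. Their naive channels spanned 1.44 and 1.63 over the arrays. Sardh had a step of -2.24 ± 0.38 between Th9 and Th2.

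In the opposite order were Trim34a, Egr2, Nmi and Evl. Egr2, an early response factor, had log2 ratios of 0.99 in Th2, -0.28 in Th9 and 2.13 in iTreg. Trim34a had -1.85, -3.19 and -0.40, and Nmi, an interferon-induced protein, had -3.24, -4.39 and -2.18. In all of these genes Th9 was the lowest culture and iTreg the highest. With median centring over all probes, Cd9, Atp1b1, Sardh, Egr2, Trim34a, Nmi and Evl were no longer 2-fold lower in both cultures.

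**Figure D4:**
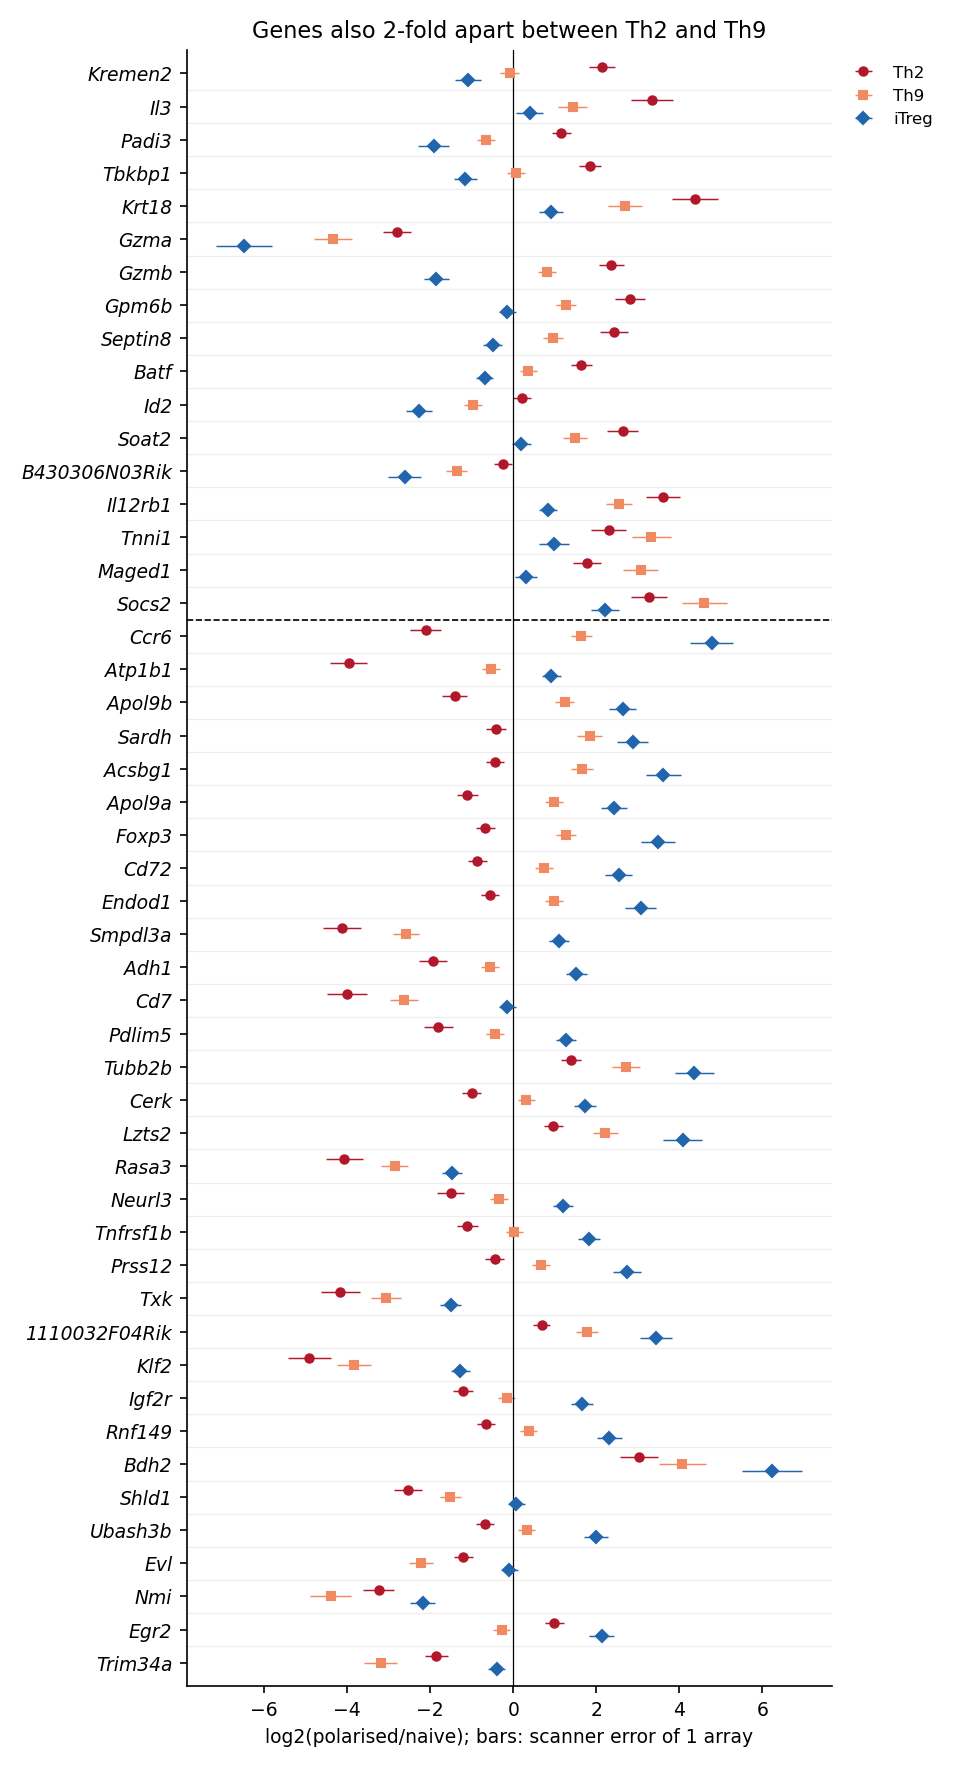
log2(polarised/naive) in Th2, Th9 and iTreg of the genes that also differ at least 2-fold between Th2 and Th9, 14 and 3 higher ones above the dashed line and 28 and 4 lower ones below it, with scanner errors as bars. Th9 lies between Th2 and iTreg in all except Socs2, Maged1 and Tnni1 above the line and Trim34a, Egr2, Nmi and Evl below it.

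Cell division genes were the list with the largest share of higher genes. Of 27 measured mitosis genes 26 were at least 2-fold higher in both IL-4 cultures (96.3%, against 4.62% of all measured genes). The median pooled difference was 1.58, and the remaining gene was Cenpa at 0.78 ± 0.36. Their median log2 ratio against naive was 3.20 in Th2, 3.48 in Th9 and 1.72 in iTreg. All 3 cultures were thus above naive, and iTreg least. Bub1, a spindle checkpoint kinase, had 3.39 in Th2 and 3.97 in Th9, against 1.57 in iTreg, and Top2a, a topoisomerase of dividing cells, had 3.69, 3.76 and 1.72. Of the 27, 26 were higher in Th9 than in Th2, none by more than 2 combined errors. Over all measured genes 4861 of 10343 were higher in Th9 than in Th2. Among the mitosis genes only Kif11 stood in the order Th2, Th9, iTreg, and with median centring over all probes 13 did.

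DNA replication genes were also mostly on the higher side. Of 31 measured, 15 were at least 2-fold higher in both cultures (48.4%, against 4.62% of all measured genes) and none lower. The median pooled difference was 1.01, and with median centring over all probes 25 were higher. Pold1, a subunit of DNA polymerase delta, had log2 ratios of 1.44 in Th2, 1.57 in Th9 and -0.16 in iTreg. Gins2, part of the replicative helicase, had 3.12, 3.21 and 1.52, and Chaf1a, a histone chaperone, 2.91 in both IL-4 cultures and 1.28 in iTreg. Th2 and Th9 differed by at most 0.13 in these 3 genes. Ung, a uracil glycosylase, was the one member on the lower side, with a pooled difference of -0.93 ± 0.26.

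The IL-2 and STAT5 response list had 10 of 20 measured genes higher (50%, against 4.62% of all measured genes) and 2 lower (10%, against 4.71%), with a median pooled difference of 0.93. Nfil3, Socs1 and Cish belong to this list as well as to the IL-4 list, and Nfil3 and Socs1 were given as markers of the contrast. Lta, the cytokine lymphotoxin alpha, had log2 ratios of 2.68 in Th2, 2.96 in Th9 and 0.67 in iTreg. Pim2, a survival kinase, had 2.86, 2.06 and 0.51, and Bcl2, which blocks apoptosis, -0.29, -0.56 and -1.96. Bcl2 was below naive in every culture and lowest in iTreg. The lower genes were receptors. Il2ra, the IL-2 receptor alpha chain, had 2.33 in Th2 and 2.56 in Th9, against 3.91 in iTreg, and Tnfrsf1b, a receptor for TNF, -1.10, 0.03 and 1.83. The call for Il2ra was lost with median centring. The part of the added IL-2 in these values was not tested.

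Naive and quiescence genes stood on the other side. Of 34 measured, 13 were at least 2-fold lower in both IL-4 cultures (38.2%, against 4.71% of all measured genes) and none higher. The median pooled difference was -0.98. With centring on the measured genes 7 were lower and with median centring over all probes 4. Ramp1, a partner of the calcitonin receptor-like receptor, had log2 ratios of -1.52 in Th2 and -0.58 in Th9, against 2.33 in iTreg, and its other measured probe gave a pooled difference of -1.75 beside -3.38. Klf2 was below naive in all 3 cultures and least so in iTreg, whereas Ramp1 was above naive in iTreg. The list's median ratio against naive was -1.57 in Th2, -1.55 in Th9 and -0.71 in iTreg.

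Of 11 measured chemokine and sphingolipid receptors, 6 were at least 2-fold lower in both IL-4 cultures (54.5%, against 4.71% of all measured genes) and none higher. They were Ccr6, Cxcr6, Cxcr5, S1pr1, Cxcr3 and Ccr7. Cxcr3, a receptor of Th1 cells, had log2 ratios of -3.64 in Th2, -3.81 in Th9 and -1.60 in iTreg. Ccr4, a receptor found on Th2 and regulatory cells, was the only member higher in both, with 2.32, 2.14 and 1.59. Ccr4 fell short of the limit with a pooled difference of 0.64 ± 0.35. Ccr8 was above naive throughout, with 2.54 in Th2 and 2.93 in Th9, against 3.35 in iTreg.

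The TGF-beta and Treg lists, whose genes could follow the other additive, held genes of both directions. The TGF-beta list, with 18 genes measured, had 3 higher (Id2, Gadd45b and Tgfb3) and 3 lower (Ccr6, Foxp3 and Pmepa1), 16.7% each against 4.62% and 4.71% of all measured genes, with a median pooled difference of -0.32, or 0.15 with median centring over all probes. Pmepa1, a feedback inhibitor of TGF-beta signalling, had log2 ratios of 0.55 in Th2, 1.02 in Th9 and 2.35 in iTreg. Nt5e, the ectoenzyme CD73, had -1.22, 2.50 and 3.24, so Th9 stood near iTreg and only Th2 apart. Of 19 measured Treg genes 3 were lower (Foxp3, Ikzf2 and Il2ra; 15.8%) and 2 higher (Socs2 and Lag3; 10.5%). Ikzf2, the factor Helios, had -1.35, -0.37 and 1.08. The call for Lag3, an inhibitory receptor, was lost in 3 of the alternatives.

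Metabolic lists differed among themselves. Of 23 measured ATF4 amino acid genes 5 were higher (21.7%, against 4.62% of all measured genes) and none lower, with a median pooled difference of 0.81. Asns, asparagine synthetase, had log2 ratios of 6.50 in Th2 and 6.13 in Th9, against 4.28 in iTreg, and Psat1, a serine synthesis enzyme, 2.94, 2.62 and 0.84. Both were above naive everywhere. Of 19 hypoxia genes 4 (21.1%) were higher, namely Ero1a, Ddit4, P4ha2 and Car12. Pdk1 was lower (5.26%, against 4.71% of all measured genes). Of 24 cholesterol genes 2 (8.33%) were higher, Lss among them, and 1 (4.17%) was lower, Abca1. Of 23 glycolysis genes, 1 was lower (Pdk1, 4.35%) and none higher. None of the 29 oxidative phosphorylation subunits was called. The medians of the glycolysis and oxidative phosphorylation lists were 0.30 and 0.27. The lower shares of the hypoxia, cholesterol and glycolysis lists were near that of all measured genes. These counts depend on the scaling. With median centring over all probes 13 of the ATF4, 10 of the hypoxia, 8 of the cholesterol, 8 of the glycolysis and 15 of the oxidative phosphorylation genes were higher in both. With centring on the measured genes the numbers were 9, 6, 2, 3 and 2.

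**Figure D5:**
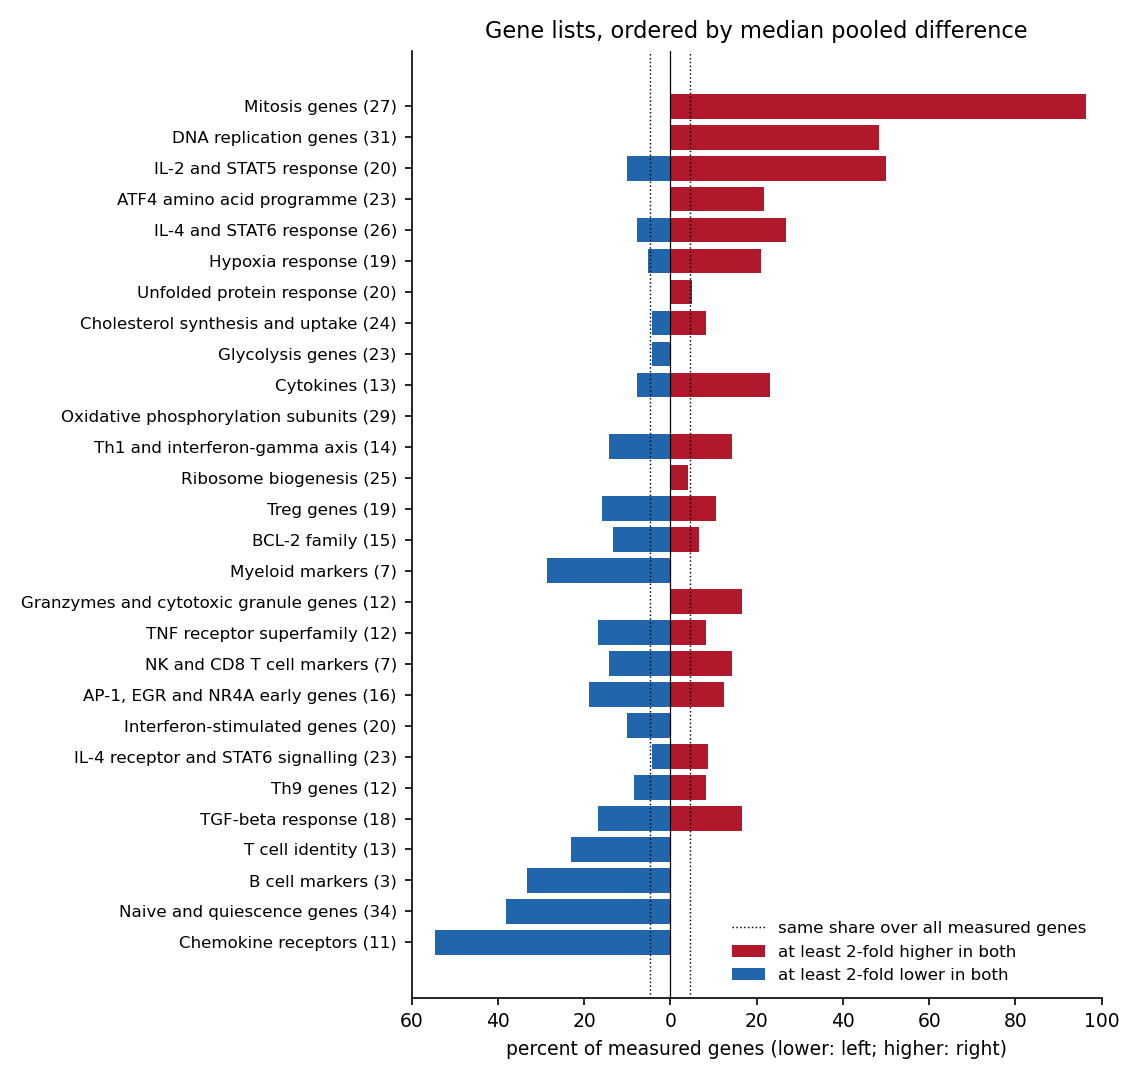
Share of each list's measured genes (number in brackets) that were at least 2-fold higher (right, red) or lower (left, blue) in both IL-4 cultures than in iTreg, in percent, with dotted lines at the shares over all measured genes (4.62 and 4.71). Mitosis genes have the longest bar to the right and chemokine receptors the longest to the left; lists are ordered by median pooled difference.

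Among T cell identity genes 3 of 13 measured were lower (23.1%, against 4.71% of all measured genes), all of them CD3 chains near the limit. The pooled differences were -1.02 for Cd3d, -1.04 for Cd3e and -1.12 for Cd3g, and their calls were lost with either centring and in the direct comparison of polarised channels. Of the 3 measured B cell markers Cd72 was lower (-0.86 in Th2, 0.74 in Th9 and 2.54 in iTreg), while Cd79b and Cd22 had pooled differences of 0.22 and -0.80. Of 7 measured NK and CD8 T cell markers Gzma was higher and Klrd1 lower (14.3% each, against 4.62% and 4.71% of all measured genes). Of 7 measured myeloid markers Itgam and Siglech were lower (28.6%), at -1.02 and -1.06, and their calls were lost in 4 of the alternatives each. Median log2 ratios against naive in Th2, Th9 and iTreg were -0.77, 0.74 and 1.83 for the B cell, -2.80, -3.31 and -1.11 for the NK and CD8, and -1.15, -1.18 and -0.60 for the myeloid markers. Ms4a1, Cd8a and Ly6g were not well above background in every channel, which does not tell whether naive RNA held them. Of other markers outside the rule, Klra8, Klrc1, Cd160, S100a8, Camp, Lyz1, Fcgr3 and Mpeg1 were above background in all 3 naive channels. Adgre1 was above it in 2 of them, and Ebf1, Spib and Vpreb3 in none. The part of other cells in the called genes was not tested, and in bulk RNA a change in cell numbers and a change in RNA per cell cannot be told apart.

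Genes at background in a channel lay outside the rule, and for them only a bound could be given. The polarised channels were compared after quantile scaling, with a channel at background set to the higher of its own signal and that array's lowest signal well above background. Outside the rule were 9408 genes. In 247 of them both IL-4 cultures were above background and iTreg was not, and 59 of these were at least 2-fold above the iTreg bound in each culture. In the opposite pattern were 514 genes, 54 of them at least 2-fold lower in each IL-4 culture. Another 1 of the 514 was at least 2-fold higher in each, so the background flag does not always follow the order of the signals. Timd2, which encodes the surface protein TIM-2, was at least 92.8-fold higher in Th2 and at least 19.8-fold higher in Th9 than in iTreg. Il4 was at least 67.3-fold higher in Th2 and at least 3.57-fold in Th9, and Il9 at least 6.53-fold in Th2 and at least 124-fold in Th9. Il4 was thus highest in the Th2 medium and Il9 highest in the Th9 medium. Cpne6, Kdelr3 and Emilin2 had the next bounds over both cultures, of at least 15.5-fold, 10.7-fold and 7.02-fold. On the other side Xcl1, the chemokine lymphotactin, was at least 64.7-fold lower in Th2 and at least 56.7-fold lower in Th9 than in iTreg. The bounds of Lcn10, Pcdhb7, Gucy1a1, Ceacam2 and Iglon5 were between 4.85-fold and 6.71-fold.

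A measured probe that was not used gave a further view of 94 higher and 112 lower genes. Where a gene had several such probes, the one whose pooled difference lay farthest from that of the probe used was counted. Of the 94, 91 had the other probe on the same side of iTreg in both cultures and 60 also passed the 2-fold limit. Of the 112, 88 had it on the same side and 32 passed the limit. The other probe of Ikzf2 gave -1.67 in Th2 and -0.78 in Th9, so it missed the limit in Th9. The other probe gave smaller pooled differences for Gem (2.19), Il12rb1 (1.48) and Psat1 (1.41), and for Stat6 one near 0 (-0.08). Pdlim5, among the lower genes in graded order, had -2.39 by the probe used and 0.12 by its other probe. Epas1, of the IL-4 lists, had -0.17 by the probe used, while its other probe was 2.39 higher in Th2 and 1.26 higher in Th9 than in iTreg.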

How the data were processed

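Naive and polarised RNA (0.2 µg of total RNA per label reaction) was hybridised on 3 Agilent 2-colour arrays, 1 per culture, with naive RNA in Cy3, polarised RNA in Cy5 and no dye swap. Per the file headers, the deposited files hold spot and background intensity in both channels from Agilent Feature Extraction 11.0.1.1, and per the submitters' processing notes the version was 9.3.2.1. Per the file headers they also hold a log10 ratio and its log10 error, set by the scanner software. The deposited series table held log2 ratios of the software's processed signals plus a constant per array (0.056, 0.021 and 0.037), which fitted all measured probes within 0.01.

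Median intensities were background-corrected (normexp, offset 50) and normalised by loess within each array, with control and outlier spots given no weight (limma 3.58.1, R 4.3.3; further steps in Python 3.11.15, pandas 2.3.3, numpy 2.4.6, scipy 1.17.1). Gene names came from GRCm38.p6 through RefSeq accessions, for 26055 of 39429 probes, and the brightest of a gene's probes was used. Array number limits the precision, and p-values were not computed. Cross-hybridisation between paralogs was not tested.

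The members and the 28 gene lists were chosen with earlier results of these data known. Genes were named from a set made of Nfil3, Socs1, Batf and both IL-4 lists, the 12 largest differences in each direction, the 6 largest and 6 smallest Th2 minus Th9 values in each direction, the 3 highest and 3 lowest genes of each list, and the 6 highest bounds in each direction. Other genes named were chosen after their values were seen. Alternatives in background correction, scaling, filter, probe choice, source of values and arrays used are given in the closing section. Some genes are not reported here.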

Additional observations from a re-analysis of the deposited data

Results flagged for a closer look

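Casp4, Cldnd1 and Sema4f were at least 2-fold from iTreg in both IL-4 cultures but on opposite sides, and the difference was not tested, since each culture had 1 array. Casp4, an inflammatory caspase, differed from iTreg by 1.72 in Th2 and -1.26 in Th9 on the log2 scale, so Th2 minus Th9 was 2.98 ± 0.36; its other measured probe gave 1.56 and -1.18. Sema4f, a semaphorin, differed by 1.15 and -1.17, and Th2 minus Th9 was 2.31 ± 0.33. Cldnd1, a membrane protein, differed by -1.14 and 1.14, and Th2 minus Th9 was -2.28 ± 0.36. These were the only 3 such genes of the 1449 on opposite sides of iTreg.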

How the results depend on the processing

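No paired analysis was possible because each culture had a single array. Among the 214 named genes, no pooled difference of a called gene changed sign under the alternatives run on it. Called genes outside that set were not checked for a change of sign. With median centring over all probes in place of loess, 1585 genes were higher and 167 lower in both IL-4 cultures, and 79.9% of the higher genes were farther in Th2; 166 of 214 named genes moved by more than their combined error. Among the brighter genes, above the median intensity, 188 genes were higher, 283 lower and 4496 on the same side, out of fewer genes tested. With the deposited series values 46.4% of the lower genes were farther in Th2; the cause was not tested. By a single IL-4 array the higher count ranged from 655 to 700 and the lower from 693 to 715. The scanner software's log ratio gave 604 higher and 725 lower genes, and a normexp offset of 16 gave 535 and 538. Centring on the measured genes was chosen after seeing the data. Signal over background limits the contrast to 10343 of 19751 genes, and no alternative replaces a replicate culture.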

Other observations

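The shares of all measured genes at least 2-fold higher and lower in both IL-4 cultures were 4.62% and 4.71%, and several of the lists below are near them. Of 16 measured AP-1, EGR and NR4A genes, Batf3 and Batf were at least 2-fold higher in both IL-4 cultures and Jund, Nfatc1 and Egr2 lower. Egr1 had log2 ratios against naive of 1.07 in Th2, -0.38 in Th9 and 1.97 in iTreg. Of 20 measured interferon-stimulated genes, Zbp1 and Xaf1 were lower in both and none higher. Higher in Th2 than in Th9 were 19 of them, against 5482 of the 10343 measured genes. With median centring over all probes 1 of the 20 was higher in both and none was lower. Isg15, a ubiquitin-like protein, had -1.09 in Th2 and -2.68 in Th9, against -2.93 in iTreg, and Trim30a had -1.58, -3.23 and -0.76. The anti-interferon-gamma dose was lower in Th2 than in the other cultures, and its part in these values was not tested.

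Of 14 measured Th1 and interferon-gamma genes, Il12rb1 and Runx3 were higher in both and Ifngr1 and Cxcr3 lower. Ifngr1, a chain of the interferon gamma receptor, had -1.66 in Th2, -0.68 in Th9 and 0.71 in iTreg. Of 12 TNF receptor superfamily members Tnfrsf10b was higher and Cd27 and Tnfrsf1b lower. Of 15 BCL-2 family members Bcl2 was higher, and Bcl2a1d and the pro-apoptotic Bmf were lower. Of 13 measured cytokine genes Lta, Il3 and Tgfb3 were higher and Il16 lower, of 12 granule genes Gzma and Gzmb were higher, and of 12 Th9 genes Batf was higher and Egr2 lower. Hsp90b1 was the only one of 20 unfolded protein response genes higher in both, and Polr1c the only one of 25 ribosome biogenesis genes.

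Of the 9408 genes outside the rule, a further 408 were above background in the polarised channel of Th2 alone and 172 of Th9 alone. Il21 was one of the former, at least 21.1-fold above iTreg. Il13 and Il5 were above background in every polarised culture. Il13 was 24.4-fold higher in Th2 and 1.64-fold higher in Th9 than in iTreg, and Il5 6.07-fold and 2.92-fold higher. These folds rest on iTreg signals near the floor, with log2 values of 7.10 for Il13 and 6.75 for Il5. Il2, which was at background in iTreg, had 6.86 there.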
